A study of Mus musculus with 6 samples.

Results

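The genes described here encode the RNA of RNase MRP, the RNA of RNase P or a ribosomal RNA locus, or lie opposite one of them. They were chosen by name from a count table of 57010 mouse genes: Ccdc107, Rmrp, Rpph1, Rn7sk and the unnamed genes ENSMUSG00000118642.2 and ENSMUSG00000119584.1. Of the 6 listed names 5 were found. They correspond to 6 rows, since Rmrp is listed under 2 identifiers, and Rn7sk was not analysed here. The choice rested on the same counts that are given below, so the members' own values are a description without a test. The samples were 3 libraries of wild-type mouse embryonic stem cells (ESC) and 3 libraries of wild-type cortical neurons. The neurons were primary cultures from cortices at embryonic day 16.5, kept for 7 days in vitro. According to the labels none of the samples was perturbed. The libraries served as pluripotent and neuronal references, and they were made by oligo-dT priming, which favours RNAs with a poly(A) tail. The batch label is the same as the group, so batch and cell type cannot be told apart, and the labels do not say whether replicates came from separate cultures or animals. P-values therefore measure only the spread between these samples. The library names of neuron replicates 2 and 3 hold the word empty, which the labels do not explain.

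RNase MRP is a ribonucleoprotein enzyme whose RNA, Rmrp, is made by RNA polymerase III and acts in the nucleolus in the cleavage of the ribosomal RNA precursor. RNase P, whose RNA is Rpph1, trims the leader from transfer RNA precursors and shares most protein subunits with RNase MRP. The 7SK RNA, Rn7sk, holds the transcription elongation factor P-TEFb in an inactive particle together with Hexim1, Larp7 and Mepce. These RNAs, like most ribosomal RNA, normally carry no poly(A) tail. Ccdc107 encodes a coiled-coil protein.

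Ccdc107 and Rmrp overlap on opposite strands of chromosome 4. In the table Ccdc107 (ENSMUSG00000028461.13) spans 43492900 to 43495921 on the plus strand in 5 exon blocks with 1547 exonic bases. Rmrp spans 43492783 to 43493063 on the minus strand as ENSMUSG00000115420.2, with 281 bases, and 43492788 to 43493058 as ENSMUSG00000088088.2, with 271 bases. These 3 positions are the same in GENCODE M21 on GRCm38. The first exon block of Ccdc107, 124 bases from 43492900 to 43493023, lies wholly inside both Rmrp entries. It makes up 8.02% of the exonic bases of Ccdc107 and 44.1% of the longer Rmrp entry. In GENCODE M21 the block belongs to 1 of 6 Ccdc107 transcripts, of the type processed transcript, and holds no UTR entry. The coding sequence of Ccdc107 starts 368 bases upstream of the Rmrp start, at 43493431. The reference sequence of Rmrp (GRCm38, chr4:43492783-43493063, minus strand) is shown because these bases tie both genes together, and the capitals mark the 124 bases that Ccdc107 holds on the other strand. The second line gives the RefSeq promoter window of Ccdc107 (GRCm38.p6, chr4:43493115-43493364, plus strand), shown because it lies between the Rmrp start and the RefSeq start of Ccdc107. In the table nearly all of it falls between the first and second exon blocks of Ccdc107. Its capitals mark TATAAA and ATGCAAAT.
Rmrp: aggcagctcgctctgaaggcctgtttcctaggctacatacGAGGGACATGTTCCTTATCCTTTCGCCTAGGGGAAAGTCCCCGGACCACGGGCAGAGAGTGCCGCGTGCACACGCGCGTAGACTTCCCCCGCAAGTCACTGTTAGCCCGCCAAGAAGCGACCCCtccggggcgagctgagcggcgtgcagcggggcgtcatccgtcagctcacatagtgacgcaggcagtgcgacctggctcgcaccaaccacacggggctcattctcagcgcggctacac
Ccdc107 promoter window: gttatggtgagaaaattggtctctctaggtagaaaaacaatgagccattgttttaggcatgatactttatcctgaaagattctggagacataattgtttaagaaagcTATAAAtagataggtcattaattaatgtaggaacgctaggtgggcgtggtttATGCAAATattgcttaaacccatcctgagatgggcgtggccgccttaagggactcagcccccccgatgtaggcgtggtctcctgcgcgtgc

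The window is 250 bases long, ends at the RefSeq start of Ccdc107 and covers 52 to 301 bases upstream of the Rmrp start. The octamer ATGCAAAT is the sequence bound by octamer factors such as Pou2f1, which take part in promoters of small RNA genes made by RNA polymerase III. It was found at base 160 of the window, 211 bases from the Rmrp start and 91 bases before Ccdc107. Searched on both strands, it occurred in 526 of 32851 RefSeq promoter windows of the same length (1.60%). TATAAA, the core of a TATA box, was found at base 108, 159 bases from the Rmrp start and 143 before Ccdc107, and occurred in 12.4% of the windows. Both matches read on the plus strand, that of Ccdc107, and they did not overlap. The bases between the Rmrp start and the window were not searched, and a match to letters is not a measured site. The Rmrp sequence was 63.7% G and C against 44% in the window.

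**Figure D1:**
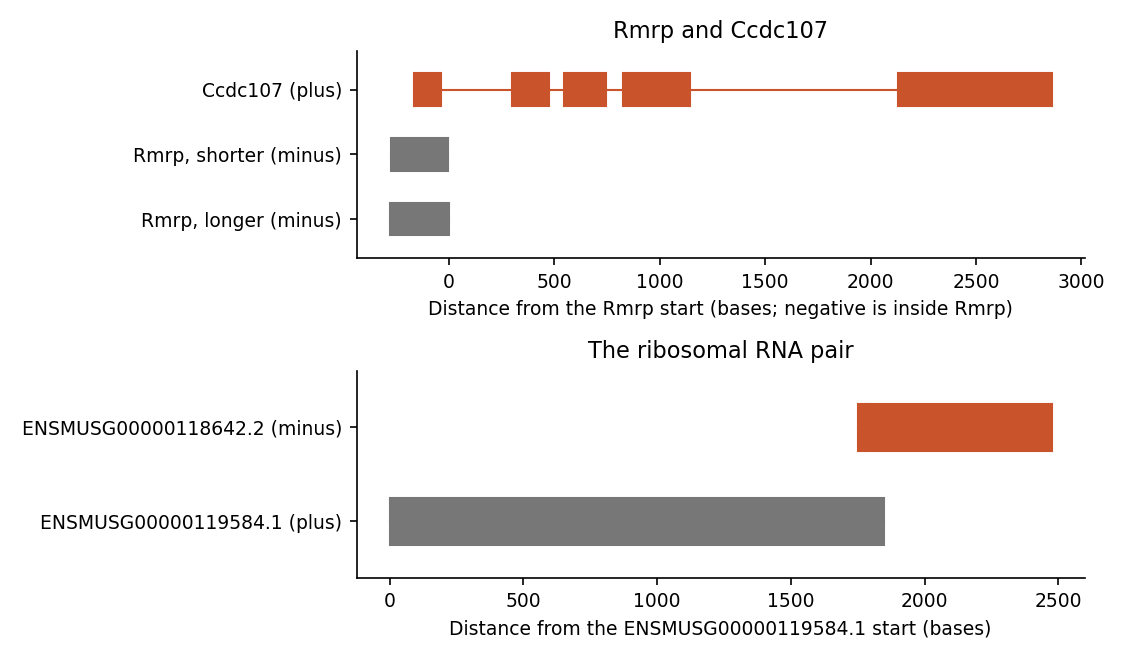
Exons (boxes) and introns (lines) of the overlapping genes, to scale; the x axes give the distance in bases from the start of the longer Rmrp entry above and from the start of ENSMUSG00000119584.1 below. The first exon of Ccdc107 lies inside Rmrp, and ENSMUSG00000118642.2 covers the end of ENSMUSG00000119584.1; the gaps of a few bases between the 4 blocks of ENSMUSG00000118642.2 are too short to be seen.

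The ribosomal RNA pair lies on chromosome 17. ENSMUSG00000119584.1 spans 40157244 to 40159092 on the plus strand as 1 block of 1849 bases. ENSMUSG00000118642.2 spans 40158994 to 40159718 on the minus strand with 714 exonic bases in 4 blocks. Both share 97 exonic bases, which are 5.25% of the exonic bases of ENSMUSG00000119584.1. The table and the annotation used here give neither a symbol. RefSeq GRCm38.p6 holds on this chromosome the ribosomal RNA pseudogene Rn18s-rs5, whose length is also 1849 bases, and the noncoding gene AY036118, which overlap each other by 91 bases, but no identifier links them to the 2 rows. That this is a ribosomal RNA locus therefore rests on the list from which the members came. Rpph1 (ENSMUSG00000092837.3) spans 51044906 to 51045224 on the minus strand of chromosome 14, with 319 bases in the table's coordinates.

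Total counts were 1368303 to 1775055 in the ESC libraries and 513425 to 624792 in the neuron libraries. For a count of 0, 3 counts were taken as an approximate upper limit. This limit was 0.000169% to 0.000219% of an ESC library and 0.000480% to 0.000584% of a neuron library. Replicates correlated at 0.981 to 0.987 among ESC and 0.960 to 0.966 among neuron libraries over genes on a log2 scale. All 14 markers of pluripotent cells had counts in every ESC library, where they held 0.0174% to 0.0225% of counts, against 0.000719% to 0.00128% in neuron libraries; Pou5f1 and Nanog were at 0 in all 3 neuron libraries. Where a marker lies opposite another gene, that gene could hold far more counts: Pou5f1 had 51, 29 and 43 counts in ESC, and Gm19553 opposite it had 18559, 13967 and 15649. Since the strand setting is not known, counts of any gene with an opposite partner, markers and the protein lists below included, cannot be told apart from those of the partner. Of the 35 protein list genes tested, 20 have no exon opposite another gene. For these too it is not known which strand their counts stand for, so low counts need not mean little RNA of the gene. Tubb3, a neuron marker without such a partner, had only 4, 2 and 1 counts in neurons. All 11 neuron markers had a count in some library, and they held 0.0127% to 0.0171% of ESC and 0.132% to 0.16% of neuron counts. Nefm, with 771, 837 and 699 counts, made up most of the neuron sum, and the list went both ways: of 4 tested markers Nefm and Map2 were higher in neurons, Stmn2 was lower (27, 25 and 16 counts against 8, 1 and 3) and Syn1 did not pass the test. Rbfox3, Gap43 and Snap25 were at 0 in all ESC libraries and had at most 11 counts in a neuron library. The 7 astrocyte markers held 0.000365% to 0.000745% of ESC and 0.00526% to 0.00864% of neuron counts, and the 7 oligodendrocyte lineage markers 0.00321% to 0.00468% and 0.032% to 0.0362%. Mog, with 183, 154 and 157 counts, made up most of the latter, and it and Olig1 were higher in neurons, while Mbp was lower (29, 18 and 28 counts against 1, 2 and 2). Of 6 microglia markers C1qa, C1qb and Tmem119 were at 0 in every library, and the list held 0.015% to 0.0201% of ESC and 0.0156% to 0.0174% of neuron counts. The 5 fibroblast and 4 endothelial markers held at most 0.000812% of any library. The part of these other cells in the results was not tested, and in bulk libraries fewer cells of a type and less RNA per cell cannot be told apart.

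In the ESC libraries Ccdc107 had 18, 10 and 5 counts in replicates 1 to 3. In the neuron libraries it had 31881, 24555 and 21631 counts. The groups lay far apart, and every neuron library held many times the counts of any ESC library although its total was smaller. Ccdc107 took 5.10% (exact binomial 95% interval 5.05% to 5.16%), 4.41% (4.36% to 4.47%) and 4.21% (4.16% to 4.27%) of the neuron libraries. It was second by raw count among all genes in each of them and stood between rank 4658 and rank 8183 in ESC. The mean share was 4.58% ± 0.467 (SD, n = 3) in neurons and 0.000694% ± 0.000339 (SD, n = 3) in ESC. After TMM scaling to CPM, the counts per 1e6 counts, the means were 37622 ± 3581 and 9.25 ± 4.53 (SD, n = 3 each), 4068-fold higher in neurons, or 11.69 on the log2 scale with a prior count of 2. The neuron replicates differed among themselves by more than counting error, since no 2 of the 3 intervals overlap; all intervals cover counting error only.

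Rmrp, the RNA on the other strand, had 0 counts in all 6 libraries in both of its entries. The 2 entries share 271 bases on the same strand, and how reads matching both were treated is not given in the sources used here. If such reads were dropped, both entries could be at 0 whatever the level of Rmrp RNA. By depth alone, the limit of 3 counts for a count of 0 is a share of 0.000584% in the shallowest library. The exact 95% interval there reaches 0.000718%. No other gene overlaps Ccdc107 on either strand. The nearest one beyond its far end, Arhgef39, begins 220 bases away on the minus strand, and its counts were 2, 1 and 1 in ESC against 7, 6 and 8 in neurons. Sit1, 9165 bases away on the other side, had 0 counts in all 6 libraries. Neither neighbour shared the high counts. Whether the counting used strand is not given in the sources used here, so reads from Rmrp and from the first exon of Ccdc107 cannot be told apart, and the table does not say which exon the reads fell on.

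ENSMUSG00000118642.2 had 2962, 2019 and 2044 counts in the ESC libraries. It had 69952, 63977 and 61797 counts in the neuron libraries, the most of any gene in each of them. The groups did not overlap, and the gene was among the well-counted genes of ESC too, at ranks 85, 102 and 111. Its share was 0.167%, 0.148% and 0.138% of the ESC libraries and 11.2%, 11.5% and 12.04% of the neuron libraries. The exact 95% intervals were 11.1% to 11.3%, 11.4% to 11.6% and 11.9% to 12.1%. Mean CPM was 2011 ± 196 in ESC and 95225 ± 3879 in neurons (SD, n = 3 each), 47.4-fold higher in neurons, or 5.56 on the log2 scale. Library totals bear on these values: set against total counts in place of TMM, the log2 ratio was 6.26 for ENSMUSG00000118642.2 and 12.34 for Ccdc107.

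Its partner on the plus strand, ENSMUSG00000119584.1, went the other way. It had 83, 57 and 33 counts in ESC against 2, 2 and 4 in neurons. The groups did not overlap, but the neuron values lie at the limit of detection, where 3 counts are 3.92 to 4.81 CPM. Mean CPM was 49.2 ± 17.1 in ESC and 4.0 ± 2.1 in neurons (SD, n = 3 each), 12.3-fold higher in ESC, and the log2 ratio was -3.06. It lay between -2.37 and -3.66 over the settings tried. ENSMUSG00000119584.1 held 2.80, 2.82 and 1.61 counts per 100 counts of ENSMUSG00000118642.2 in ESC. In neurons it held 0.00286, 0.00313 and 0.00647 per 100. The 2 genes share exonic bases on opposite strands and many copies of ribosomal DNA exist, so both counts are uncertain in how reads were divided.

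**Figure D2:**
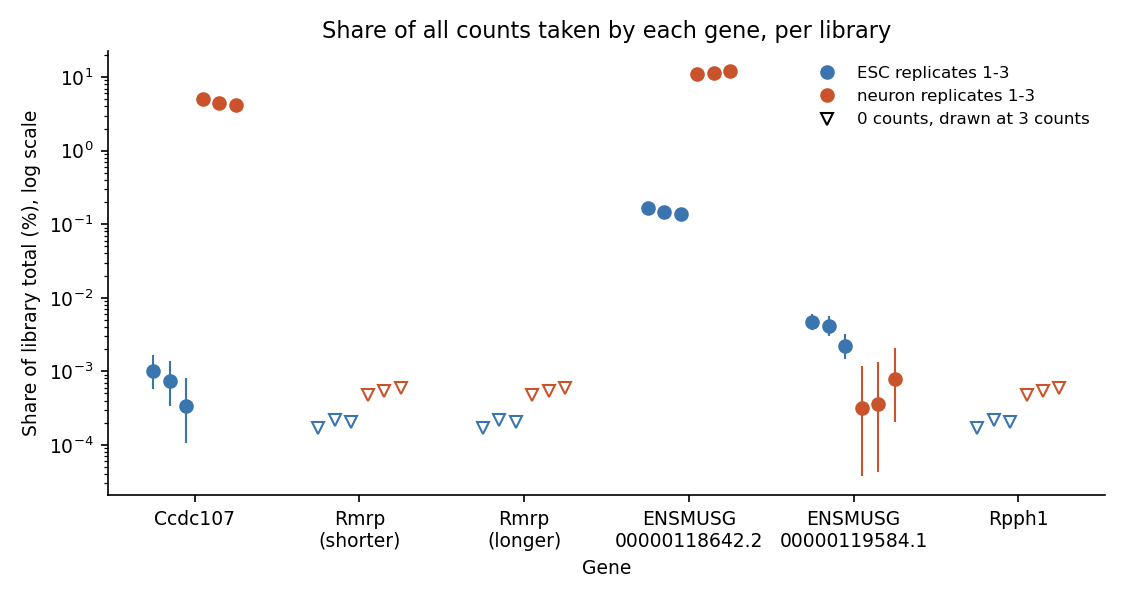
Share of each library's total count (%, log scale) for the 6 rows, with ESC in blue and neurons in orange, replicates 1 to 3 from left to right; vertical lines are exact 95% binomial intervals, and open triangles stand for 0 counts and are drawn at the share of 3 counts. Ccdc107 and ENSMUSG00000118642.2 sit higher in all 3 neuron libraries, ENSMUSG00000119584.1 sits higher in all 3 ESC libraries, and both Rmrp entries and Rpph1 have only triangles.

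Rpph1, the RNA of RNase P, had 0 counts in all 6 libraries. The only gene outside the list that overlaps a member is Ccnb1ip1, on the same strand as Rpph1, with 233 shared exonic bases. Ccnb1ip1, which encodes a meiotic ubiquitin ligase, had 0, 1 and 0 counts in ESC against 0 in all 3 neuron libraries. No gene lies opposite Rpph1. Parp2, a DNA repair enzyme gene, begins 73 bases away and had 4, 3 and 10 counts in ESC against 1, 0 and 0 in neurons. In neurons Ccdc107 and ENSMUSG00000118642.2 thus held high counts, the rows opposite them held few or none, and Rpph1 held none. The strand setting and the treatment of reads shared by Rpph1 and Ccnb1ip1 are not known. The loci were chosen from these same counts, and whether an opposite gene bears on the counts was not tested.

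Per kilobase of exon, ENSMUSG00000118642.2 had a mean of 91375 counts in neurons and Ccdc107 had 16821. In ESC these were 3280 and 7.11 counts per kilobase. The order was the same in each of the 6 libraries. ENSMUSG00000119584.1 had 31.2 counts per kilobase in ESC, above Ccdc107 there, and 1.44 in neurons, below it. Rmrp and Rpph1 were at 0.

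The 2 high genes together took 16.3%, 15.9% and 16.2% of the neuron libraries and 0.168%, 0.148% and 0.139% of the ESC libraries. Their balance varied between neuron replicates: Ccdc107 had 45.6, 38.4 and 35.0 counts per 100 counts of ENSMUSG00000118642.2, while their summed share had an SD of 0.212 points around 16.2%. The replicate with the largest share of Ccdc107 thus had the smallest share of ENSMUSG00000118642.2. In ESC the ratio was 0.608, 0.495 and 0.245 per 100. The pair made up 72.5%, 70.4% and 72.3% of what the 10 genes with the most counts held in each neuron library. The gene next in line held 1.52%, 1.53% and 1.47%, and Ccdc107 stood 3.36, 2.89 and 2.86 times above it.

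**Figure D3:**
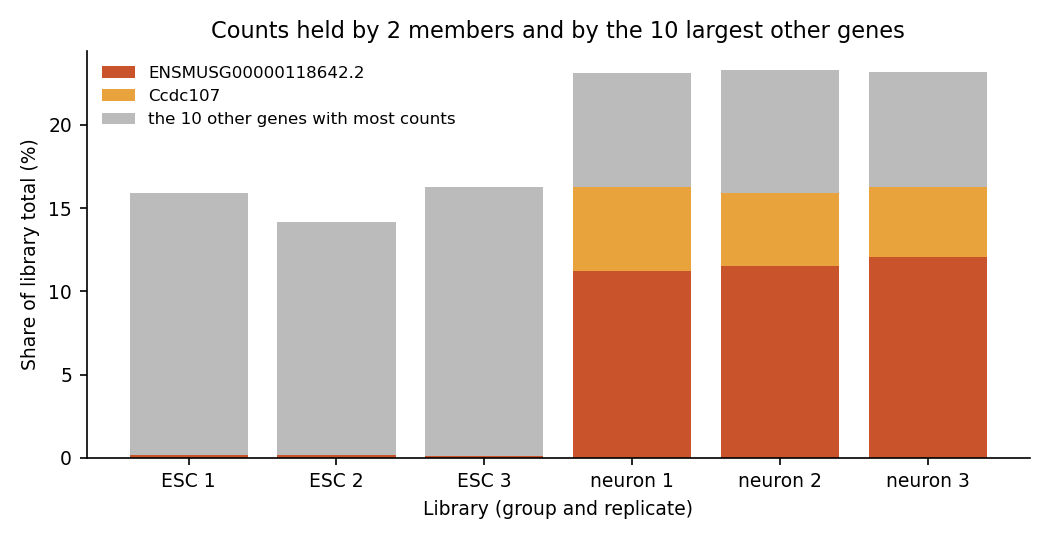
Share of each library's total count (%) held by ENSMUSG00000118642.2, by Ccdc107 and by the 10 other genes with the most counts, stacked, for each of the 6 libraries. The first 2 hold 15.9% to 16.3% of each neuron library and 0.139% to 0.168% of each ESC library; the 10 others hold 6.85% to 7.38% of the neuron libraries and 14.0% to 16.1% of the ESC libraries.

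Most other structured RNA genes had no count. Small nuclear RNA genes, with a count for 174 of 789, held 0.0197% to 0.0206% of ESC and 0.0590% to 0.0665% of neuron libraries. Small nucleolar RNA genes, with a count for 175 of 1065, held 0.0195% to 0.0241% and 0.0525% to 0.0563%. Both classes took larger shares in all 3 neuron libraries than in any ESC library, with no gene above 151 counts in a library. Scaled to total counts, the 7150 genes tested by edgeR also leaned towards neurons, with a median log2 ratio of 1.10. On that scale 4050 genes were called higher and 2136 lower. The larger shares are thus not shown to be particular to these classes, which were not tested as groups. Of 20 genes annotated as ribozymes 1 had a count, at most 11 in a library, and of 13 ribosomal RNA genes outside the mitochondria 4 had a count, at most 6. Among them n-R5s85, a 5S ribosomal RNA gene, was highest, with 6, 4 and 3 counts in ESC and 2, 0 and 0 in neurons. The mitochondrial ribosomal RNAs were measured: mt-Rnr1, the small subunit RNA, had 14, 4 and 5 counts in ESC against 18, 8 and 7 in neurons. By edgeR's quasi-likelihood test it was higher in neurons (log2 fold change 1.26 ± 0.44, SE, adjusted p = 0.0088), but it did not pass without neuron replicate 1 (0.81) or by DESeq2's Wald test (1.28). For mt-Rnr2, the large subunit RNA, with 97, 39 and 27 counts in ESC and 27, 37 and 33 in neurons, the log2 fold change was 0.04 ± 0.32 (SE, adjusted p = 0.91). Of 15 other structured RNAs listed, 12 were at 0 in all libraries, and the highest count was 3, for Scarna2 in a neuron library.

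Ccdc107 is 1 of 34 genes with exons opposite a gene typed as a structured RNA in GENCODE M21, out of 1954 such RNA genes. The ribosomal RNA pair has no type there and was left out, although ENSMUSG00000118642.2 held a mean share of 11.6% in neurons. Ccdc107 had the largest neuron share of the 34 by a wide margin, but it was chosen from these same counts. Next came Tlcd1, opposite the small nucleolar RNA Snord4a, with a mean share of 0.333% in neurons and 1.23% in ESC. Gm45552, opposite Snord35b, held 0.204% and 1.10%, and Gm17300, opposite Snora73b, held 0.0716% and 0.170%. These 3 were higher in ESC, unlike Ccdc107. 9430041J12Rik, opposite the small nuclear RNA gene Gm23741, was higher in neurons, with 390, 342 and 419 counts against 55, 37 and 42. The genes were ranked after their values had been seen and were not tested as a group.

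**Figure D4:**
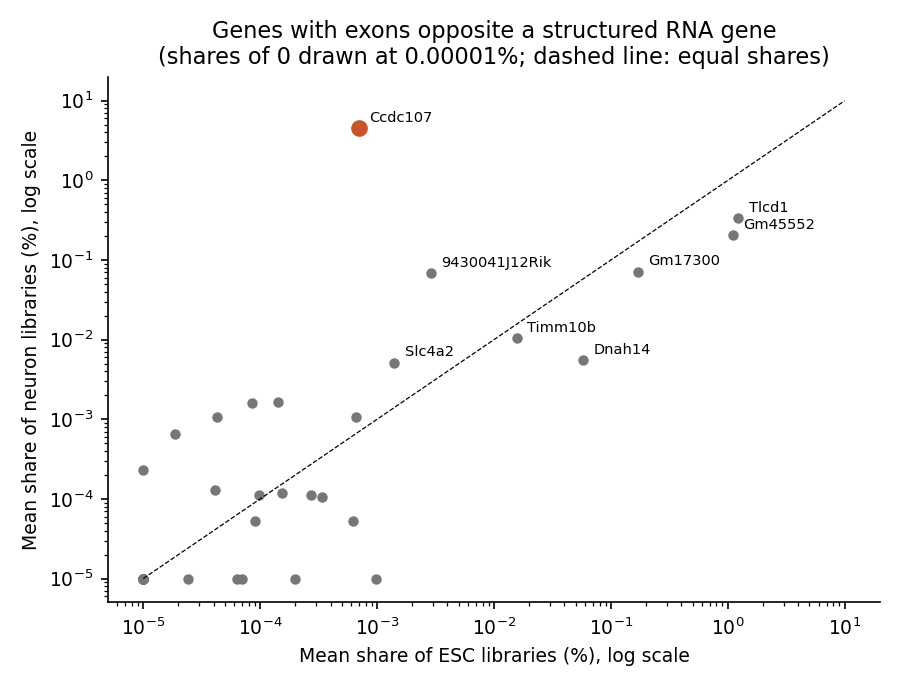
Mean share of library total (%, log scales) in ESC (x) and neuron (y) libraries for 34 genes. Their exons lie opposite a gene typed as a structured RNA in GENCODE M21. Each point is a gene, shares of 0 are drawn at the lowest labelled tick, and the dashed line marks equal shares. Ccdc107 (orange) stands at 0.000694% and 4.58%, while Tlcd1 and Gm45552 lie to the right, below the line.

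The genes most like the 2 high members in profile were sought among 2732 genes, by Euclidean distance between log2 CPM values over the 6 libraries, each centred on its mean. Closest to ENSMUSG00000118642.2 were Pcsk2os2 (distance 0.23), Gm14703 (0.37) and Eps8l3 (0.38). Each of them has exons opposite another gene, namely Pcsk2, which encodes a prohormone convertase, Syp, which encodes synaptophysin, and 4933431E20Rik. The share of the 2732 compared genes with such a partner is not given here, so a partner is not shown to be particular to them. Closest to Ccdc107 were Gm13872 (3.09) and Cdr1 (3.20), both at 0 in every ESC library. They lie opposite Slc1a2, an astrocyte glutamate transporter gene, and C230004F18Rik. The distances to Ccdc107 are larger, but this measure also counts the size of the step between the groups. Over the 6 libraries the Pearson correlations with Ccdc107 were 0.998 for Gm13872 and 0.995 for Cdr1. Both genes were picked by these same values, and a large step between the groups alone brings a correlation near 1. The correlations are therefore no separate sign of likeness. Rmrp, at 0 in all libraries, has no profile.

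The proteins that bind, make or use these RNAs were then described by 6 lists with 87 genes. Over the whole table, 7150 genes passed the filter on low counts, among them 3 of the 6 member rows, and edgeR's quasi-likelihood test called 6119 of them (85.6%) at an adjusted p under 0.05, with 47% higher and 38.6% lower in neurons. On the lists 35 genes were tested, and 29 were called, 9 higher and 20 lower in neurons. The share called, 82.9%, is near that of all genes. The calls of each list below are likewise to be read beside the 85.6% called among all tested genes. The median log2 fold change of the tested list genes was -0.71 against 0.37 over all tested genes, with or without genes at 0 in a group set at their bound. Scaled to total counts, which moves the median of all genes up by 0.73, 25 list genes were called, 12 higher and 13 lower. Of all genes, 4050 were then higher and 2136 lower, against 3358 and 2761.

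**Figure D5:**
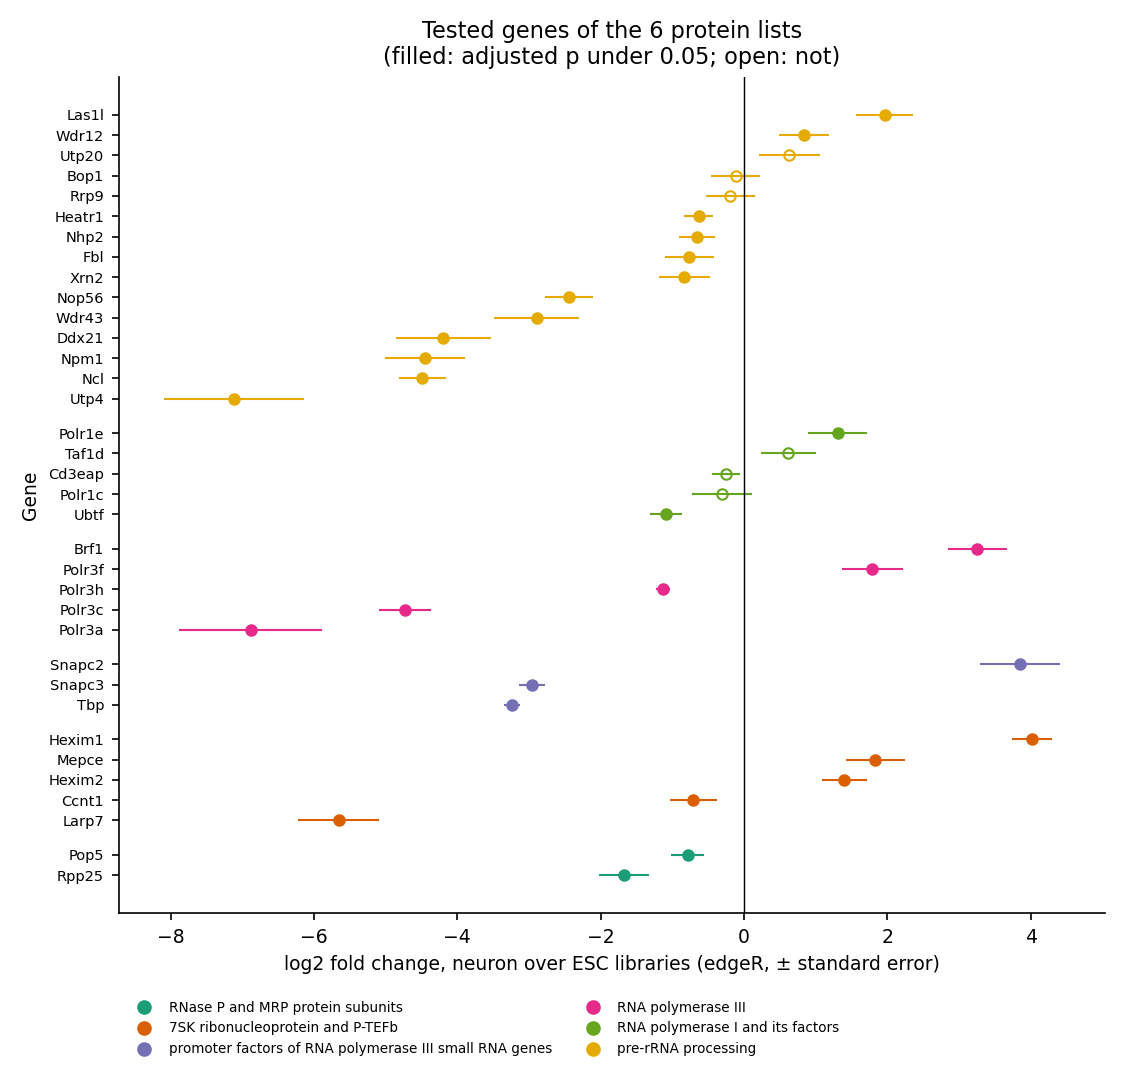
Log2 fold change of neuron over ESC libraries (x axis, edgeR, with standard error bars) for the 35 tested genes of the 6 protein lists, one gene per line and one colour per list; filled points passed an adjusted p of 0.05. Of the points, 9 lie filled to the right of 0 and 20 filled to the left; those of Polr3a and Utp4, at 0 in all neuron libraries, depend on the prior count.

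Of the 11 protein subunits of RNase P and RNase MRP, 2 had enough counts to be tested, and both were lower in neurons. Rpp25, which binds the RNA, had 48, 34 and 32 counts in ESC against 10, 4 and 7 in neurons, which gave -1.67 ± 0.35 as log2 fold change with its SE (edgeR adjusted p = 3.55e-05). Pop5 had 95, 61 and 66 counts in ESC against 30, 22 and 24 in neurons (log2 fold change -0.79 ± 0.23, edgeR adjusted p = 0.00239). Scaled to total counts the change of Pop5 was -0.06 and no longer passed, nor did it without the 2 libraries named empty (-0.61). The other 9 subunit genes had at most 9 counts in a library. Pop7 had 7, 7 and 5 counts in ESC against 2, 1 and 0 in neurons, Rpp25l 9, 6 and 0 against 0 in all 3, and Rpp38 2, 1 and 0 against 4, 5 and 3. Pop1, Pop4, Rpp14, Rpp21, Rpp30 and Rpp40 stayed at 4 counts or fewer in every library. The counts of Gm48746, which lies opposite Rpp40 with 80 shared exonic bases, were 258, 173 and 260 in ESC against 3, 1 and 4 in neurons.

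Among the 7 genes of the 7SK particle and P-TEFb, 5 were tested, 3 higher and 2 lower in neurons. Hexim1, which inhibits P-TEFb when bound to 7SK RNA, had 7, 10 and 11 counts in ESC against 116, 98 and 63 in neurons (log2 fold change 4.02 ± 0.28, edgeR adjusted p = 3.61e-16). Mepce, which caps 7SK RNA, was also higher (1.83 ± 0.41), as was Hexim2 (1.40 ± 0.31). Larp7, which binds the end of 7SK RNA, went the other way, with 52, 77 and 61 counts in ESC and 0, 0 and 2 in neurons. Its pooled counts were 56.5 times higher in ESC (95% counting interval 15.4 to 470). The fitted log2 fold change was -5.65, and -8.79 without neuron replicate 3, which held both neuron counts. Ccnt1, the cyclin of P-TEFb, was lower by a small margin (-0.71, adjusted p = 0.043) and at 0.02 when scaled to total counts. It did not pass by DESeq2's Wald test either.

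Of 10 promoter factors of small RNA genes 3 were tested. Snapc2, a subunit of the complex that binds the proximal sequence element, was higher in neurons, with 1, 0 and 3 counts in ESC and 13, 16 and 9 in neurons (log2 fold change 3.85 ± 0.56, edgeR adjusted p = 7.83e-08). This value rests on 4 ESC counts in all and was 4.95 without ESC replicate 3. Tbp, the TATA-binding protein, had 2560, 1880 and 2194 counts in ESC against 142, 147 and 128 in neurons (-3.23 ± 0.11). Snapc3 had 5790, 5940 and 4663 against 427, 526 and 313 (-2.96 ± 0.18). Both lie opposite other genes: Tbp shares 2582 exonic bases with Pdcd2 and Snapc3 shares 483 with Psip1, so their reads are uncertain. Pdcd2 had 36, 49 and 33 counts in ESC against 37, 31 and 27 in neurons, and Psip1 had 124, 115 and 109 against 172, 172 and 102.

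Of 13 genes of RNA polymerase III, 5 were tested, 2 higher and 3 lower in neurons. Brf1, a subunit of its initiation factor at transfer RNA genes, had 3, 3 and 5 counts in ESC against 25, 21 and 19 in neurons (log2 fold change 3.26 ± 0.41, edgeR adjusted p = 4.06e-09). It shares 532 exonic bases with 9230104M06Rik, which was lower in neurons (-1.45 ± 0.18). Polr3f was also higher (1.79 ± 0.43). Polr3a, the largest subunit, had 21, 17 and 17 counts in ESC against 0 in all 3 neuron libraries, which makes it at least 3.61-fold lower, against the mean limit of 3 counts per neuron library. Polr3c had 130, 110 and 84 counts in ESC against 2, 3 and 2 in neurons (-4.73 ± 0.36).

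RNA polymerase I, which makes the ribosomal RNA precursor, and its factors gave 5 tested genes of 15. Ubtf, the upstream binding factor of ribosomal DNA, was lower in neurons, with 126, 73 and 137 counts in ESC and 40, 30 and 24 in neurons (log2 fold change -1.09 ± 0.23, edgeR adjusted p = 3.80e-05). Polr1e was higher (1.31 ± 0.41, edgeR adjusted p = 0.00398), with 9, 3 and 17 counts in ESC and 15, 13 and 15 in neurons. Without ESC replicate 3 it stood at 1.91. Neither call held throughout: Ubtf did not pass when scaled to total counts (-0.35), nor Polr1e without the libraries named empty (1.30). The other 3 did not pass the test, and without neuron replicate 1, where 6 genes were tested, 4 were called.

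Factors that process the ribosomal RNA precursor were lower in neurons for 10 of the 15 tested genes and higher for 2. The share called, 80%, is near the 85.6% of all tested genes, of which 38.6% were lower and 47% higher. Ncl, nucleolin, had 149, 89 and 150 counts in ESC against 4, 3 and 3 in neurons (log2 fold change -4.49 ± 0.33, edgeR adjusted p = 4.10e-15). Npm1, nucleophosmin, had 92, 28 and 77 counts and then 0, 3 and 2 (-4.45 ± 0.56). It stood at -3.81 without neuron replicate 1, at -5.22 without neuron replicate 2 and at -8.87 without both libraries named empty. Utp4, of the small subunit processome, had 25, 16 and 24 counts in ESC against 0 in all neuron libraries, at least 4.25-fold lower. Ddx21, a nucleolar helicase, had 28, 24 and 18 counts and then 0, 0 and 2, a pooled ratio of 20.8 (95% counting interval 5.55 to 175) in favour of ESC. Its fitted log2 fold change was -4.20, and -7.33 without neuron replicate 3. Heatr1 and Nhp2 were among the 10, but when scaled to total counts they stood at 0.10 and 0.08. Scaled so, 6 of the 15 were lower and 3 higher. DESeq2's Wald test called 7 lower and 1 higher, and without ESC replicate 2, which left 10 genes to test, 6 were lower and 1 higher. Without neuron replicate 2 or 3, which left 20 to test, 14 were lower and 2 higher.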

How the data were processed

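The members and the gene lists were chosen with earlier results of these data known. The authors deposited a table of whole-number counts per gene for 6 libraries, with positions, strand and length, and the deposited length column equalled the merged exon length for 100% of genes. Per the submitters' processing notes, the tools cutadapt, STAR and RSEM and the build GRCm39 (mm39) were used. The counting tool, its strand setting and its treatment of multiply mapped reads are not given in the sources used here. Library columns were matched by name, and 0 were left over. Symbols and types came from GENCODE M21 by identifier for 52029 of 57010 genes (91.3%). Positions are those of the table. Its positions for Ccdc107 and Rmrp equalled those of GRCm38, from which the sequences were read; that of Rpph1 did not.

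Shares are counts over the library total with exact 95% binomial intervals, which cover counting error only, and the depth of 513425 to 1775055 counts sets the precision. Groups were compared with edgeR 4.0.16 in R 4.3.3 on the counts as deposited: filterByExpr with a minimum count of 10, TMM factors of 0.774 to 0.779 (ESC) and 1.28 to 1.30 (neuron), robust glmQLFit and glmQLFTest on all 6 libraries without covariates, with Benjamini-Hochberg adjustment over all 7150 tested genes and a threshold of 0.05. The steps were tested on simulated data with 200 of 7150 genes changed 4-fold. Of the changed genes 84% were called, and 2.89% of the calls were unchanged genes. Far fewer genes changed there than were called in the data, so the simulation does not test the scaling under such a broad change. Errors of log2 fold changes are approximate standard errors. Overlaps of at least 1 exonic base were found with bedtools 2.31.1.

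Named were the members, every gene overlapping them, up to 4 called genes with the largest change from each protein list, all RNase P and RNase MRP subunits, noncoding and ribosomal RNA genes with a group mean of at least 10 counts, and the 3 genes nearest in profile, among genes with a mean log2 CPM of at least 5; 1 of those nearest to Ccdc107 is not reported here. Neighbouring genes without overlap, n-R5s85, Scarna2, the genes opposite structured RNAs, the opposite partners of list genes, Ccnt1, Heatr1 and Nhp2 were named after their values had been seen. Alternatives were other scalings, filters and prior counts, DESeq2 1.42.0, the replicate block and leaving out each library; leaving out both neuron libraries named empty, and keeping only list genes with no opposite exon, were chosen after seeing the data.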

Additional observations from a re-analysis of the deposited data

How the results depend on the processing

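Depth limits the low values: by depth alone, the limit of 3 counts for a gene at 0 is 0.000584% of the shallowest neuron library. The exact 95% interval there reaches 0.000718%. Rmrp and Rpph1 overlap another row on the same strand, and the treatment of shared reads is not known, so this limit may not hold for them. The directions of the 3 members' log2 ratios held under every alternative run. The members were chosen from these same counts and their ratios lie far from 0, so a kept direction is no test of the difference. For Ccdc107 the ratio was 11.69, with 12.34 scaled to total counts, 12.52 scaled to totals without mitochondrial genes and members, and 11.41 to 11.99 leaving out each library. For ENSMUSG00000118642.2 it was 5.56, with 6.26, 6.45 and, by upper quartiles, 5.78 (5.51 to 5.64 leaving out each library). For ENSMUSG00000119584.1 it was -3.06, with -2.52 by total counts, -2.37 by totals without mitochondrial genes and members, and -3.66 by DESeq2's Wald test (-3.37 to -2.86 leaving out each library). Without both neuron libraries named empty the 3 ratios were 11.83, 5.50 and -3.42.

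The calls over all genes numbered 6119, with 11762 of 28820 genes without a filter and 5430 to 7353 leaving out each library. The list calls numbered 29, with 55 of 87 without a filter, 18 among the 20 tested genes with no exon opposite another gene, 24 by DESeq2's Wald test and 23 to 35 leaving out each library. Of 518 alternative values for 39 single genes 443 kept direction and side of the threshold, 44 lost the call, 7 gained one and 24 changed sign. Scaled to total counts, the log2 fold change was 0.61 for Bop1, 0.018 for Ccnt1, 0.48 for Cd3eap, 0.10 for Heatr1, 0.075 for Nhp2, 0.42 for Polr1c and 0.54 for Rrp9, against negative values by TMM; a shift of all genes accompanies this scaling. By upper quartiles it was 0.10 for Bop1 and 0.026 for Rrp9, and, keeping only genes averaging 10 counts or more, 0.25 for Bop1, 0.11 for Cd3eap, 0.056 for Polr1c and 0.17 for Rrp9. Leaving out each library it ran from -0.74 to 0.13 for Bop1 and from -0.56 to 0.067 for Rrp9, and without both libraries named empty it was 0.056 for Cd3eap. For mt-Rnr2, at 0.04, it was -0.012 with DESeq2 size factors, -0.11 without a filter, -0.29 without both libraries named empty and -0.36 to 0.53 leaving out each library. The cause was not tested.

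Same-numbered libraries of both groups did not deviate together (correlations 0.0189, 0.0039 and -0.0223). This gives no sign of pairing by number, but it cannot show that the samples were not handled in pairs. With the replicate block 6088 genes and 28 list genes were called, and the ratio of ENSMUSG00000119584.1 was -3.62.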
